A study of Mus musculus with 6 samples.

Results

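Interleukins and their receptors were followed in adipocytes floated from the inguinal subcutaneous white adipose tissue (scWAT) of male mice at postnatal day 7. The genes were the rows whose symbol begins with Il and a digit and that had a count of at least 10 in at least 3 of the 6 libraries. Of 83 rows with such a symbol among 37384 genes in the table, 49 met this rule: 12 of 37 ligand genes, 31 of 38 receptor genes, 5 of 6 genes for antagonists or decoy receptors, and the amino acid oxidase gene *Il4i1*. Of the 49 genes, 39 reached a count of 10 in all 6 libraries. *Il10* and *Il12rb1* reached it in no L1L2-FF library and so met the rule through L1L2-AKO alone. The other 34 rows held 13 genes at 0 in all libraries and 21 with at least 1 read.

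The groups were 3 libraries of L1L2-AKO mice (Lats1f/fLats2f/fAdipoqCre) and 3 of their L1L2-FF littermates (Lats1f/fLats2f/f), each made from the adipocytes of 4 pooled males. LATS1 and LATS2 are the kinases of the Hippo pathway that restrain the cofactors YAP and TAZ. Both genotypes carry the floxed *Lats1* and *Lats2* alleles on a mixed background. Cre, driven by the promoter of the adipocyte gene *Adipoq*, is present only in L1L2-AKO, so the loss of *Lats1* and *Lats2* and the presence of Cre cannot be told apart. Any other cell that floated or clung to the adipocytes also gave RNA, and in such bulk samples fewer cells of a type and less RNA per cell cannot be told apart.

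Interleukins are secreted proteins that bind receptors assembled from a ligand-specific chain and a chain shared within a family, such as gp130, the common gamma chain or IL-1RAP. Most of these receptors signal through JAK kinases and STAT factors, whereas receptors of the IL-1 and IL-17 families recruit adaptors that lead to NF-kB. Antagonists and decoy receptors bind receptor or ligand without passing a signal. In adipose tissue, IL-6 and IL-1 are known for their effects on lipolysis and inflammation, and IL-4, IL-13 and IL-33 for type 2 immunity.

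Total counts ranged from 30548473 to 32107917 per library. *Lats1* fell from 76.1, 94.3 and 78.4 to 38.9, 41.2 and 40.5 counts per 1000000 (CPM; replicates 1, 2 and 3 of each genotype, here and below), with a log2 fold change of -1.04 ± 0.118 (SE). *Lats2* went against the genotype label, at 74.9, 85.7 and 68.5 CPM in L1L2-FF and 96.2, 126 and 135 CPM in L1L2-AKO (log2 fold change 0.64 ± 0.156). By quantitative PCR of scWAT adipocytes of the same age, the paper reports a reduction of both *Lats1* and *Lats2* in L1L2-AKO. A count over the whole gene also takes in exons outside a deleted stretch, and directions below are those of the libraries labelled L1L2-AKO against those labelled L1L2-FF. The 7 adipocyte markers were all detected, with a summed level of 13400 to 16300 CPM in L1L2-FF and 10300 to 12400 CPM in L1L2-AKO. Of these, *Adipoq* (log2 fold change -1.26) and *Pparg* were lower. The other 5 were not called, with log2 fold changes from -0.65 for *Plin1* to 0.41 for *Lep*. The most abundant marker, *Fabp4*, was at -0.30.

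Of the 49 genes, 48 passed the filter on low counts and were tested, *Il13ra2* being the exception. Past an adjusted p of 0.05 (edgeR's quasi-likelihood test, Benjamini-Hochberg over 15674 genes), 15 were higher in L1L2-AKO and 3 were lower. These were 30.6% and 6.12% of the 49 genes, against 9.28% of all genes tested called higher and 7.18% called lower. The median log2 fold change was 0.575 over the 48 genes and -0.0195 over all genes tested. Without *Il10* and *Il12rb1*, which reached a count of 10 in no L1L2-FF library, 14 of 47 were higher and 3 lower, with a median of 0.445. *Il1rn* and *Il1r2* reached it in 1 and 2 L1L2-FF libraries, so their entry also needed L1L2-AKO, and they remain among the 14. *Il17re*, among the 3 called lower, reached it in 2 L1L2-AKO libraries, so its entry also needed L1L2-FF. Of the 39 genes with a count of 10 in all 6 libraries, 12 were higher and 2 lower, with a median of 0.62. The counts over the 49 genes depended on single libraries. Leaving out L1L2-FF replicate 1 left 5 genes called higher, and leaving out L1L2-AKO replicate 2 or replicate 3 left 7 each. Leaving out L1L2-FF replicate 2 gave 18. The counts over all genes moved too: in these fits, in the same order, 777, 814, 844 and 1552 were called higher, against 1455 with all libraries.

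**Figure D1:**
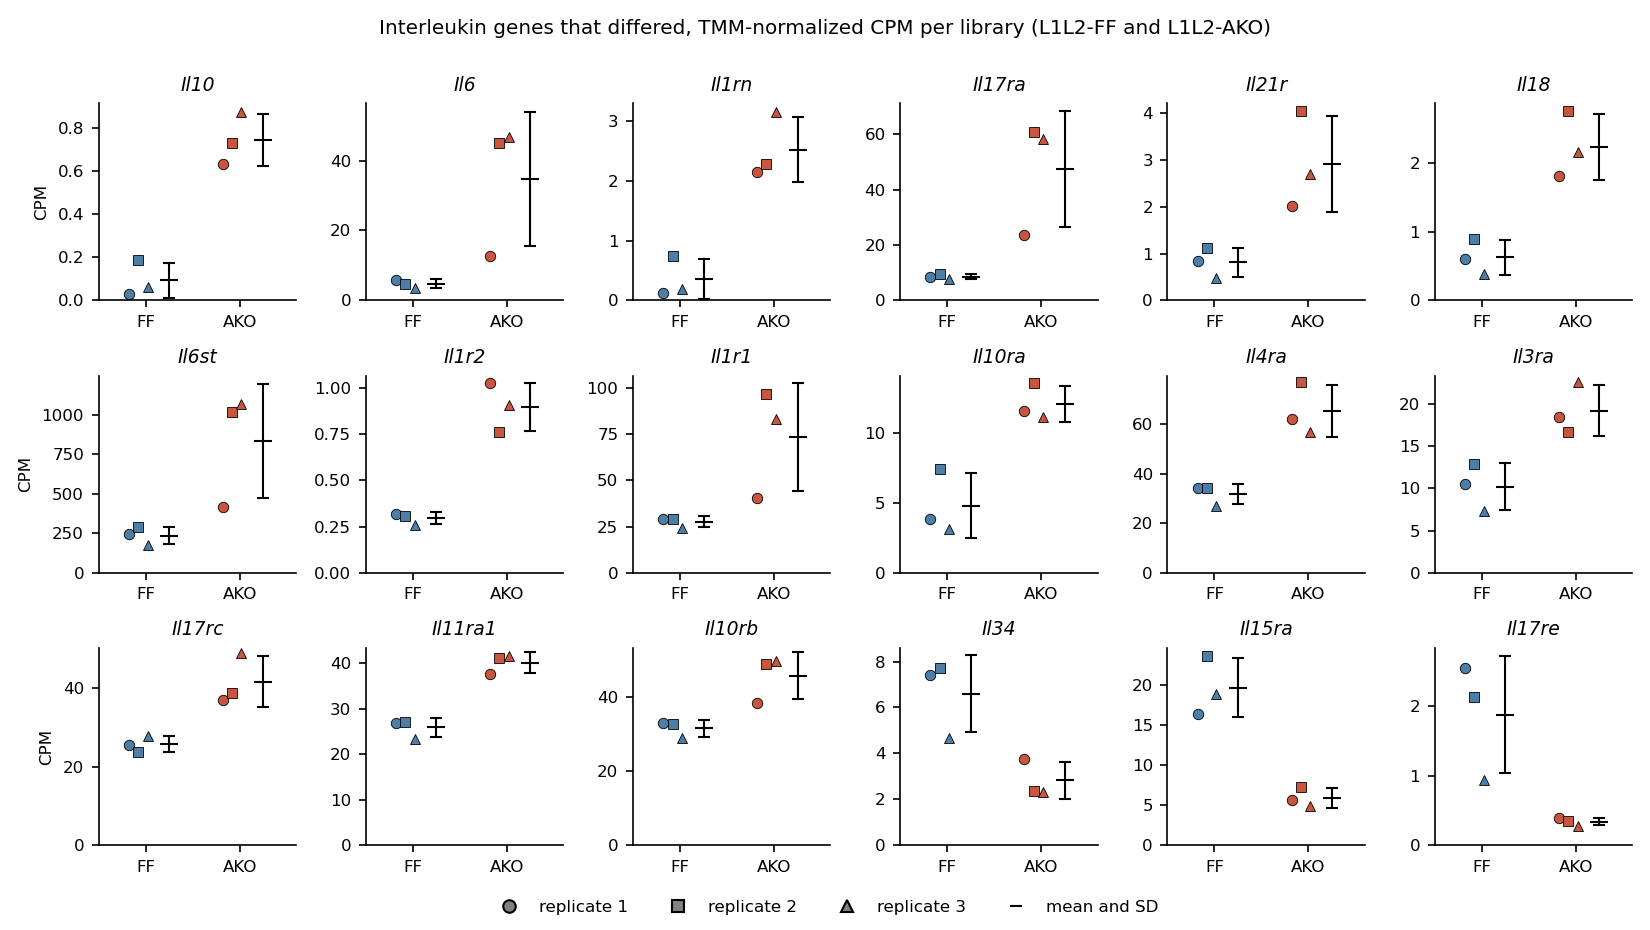
TMM-normalized CPM on a linear axis from 0 for the 18 interleukin genes past the threshold, with 1 panel per gene in order of log2 fold change. Marker shapes stand for replicates 1 to 3 of L1L2-FF (blue) and L1L2-AKO (red), and the black mark is the mean with its SD (n = 3). L1L2-AKO replicate 1 lies well below replicates 2 and 3 for *Il6*, *Il17ra*, *Il6st* and *Il1r1*.

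The gp130 family held the gene with the highest level per length of all 49. Its ligand *Il6*, its shared chain *Il6st* and the receptor chain *Il11ra1* rose, and the 5 other tested members did not pass the threshold.

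*Il6* (chr5:30013114-30019981), which encodes the cytokine IL-6, stood at 5.94, 4.82 and 3.45 CPM in L1L2-FF and at 12.8, 44.9 and 46.8 CPM in L1L2-AKO. All L1L2-AKO libraries lay above all L1L2-FF libraries, and L1L2-AKO replicate 1 lay far below the other two. The fitted rise was 7.35-fold (log2 fold change 2.88 ± 0.475, adjusted p = 0.00593, edgeR), and *Il6* was the only ligand of the gp130 and IL-12 families to meet the count rule, out of 7 in the table. *Il6st* (chr13:112464070-112510086) encodes gp130, the signalling chain shared by the receptors for IL-6, IL-11, LIF and oncostatin M. Its levels were 244, 287 and 177 CPM in L1L2-FF and 415, 1020 and 1070 CPM in L1L2-AKO. The lowest L1L2-AKO library was again replicate 1, and it was still above the highest L1L2-FF library (log2 fold change 1.82 ± 0.358, adjusted p = 0.0122, edgeR). Without L1L2-FF replicate 1 the adjusted p of *Il6st* was 0.0542. Per kb of exon *Il6st* averaged 48.2 CPM, ahead of *Il17rc* at 12.6 and *Il10rb* at 10.1. It made up 19.0%, 21.1% and 17.1% of the summed level per kb of the 49 genes in L1L2-FF and 24.0%, 37.1% and 38.9% in L1L2-AKO.

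The bases upstream of *Il6* and *Il6st* are shown as those of the ligand and the shared receptor chain of this family that rose. Each sequence is the 250 bases before the transcription start in RefSeq (GRCm38.p6, plus strand), 5′ to 3′, with motif matches in capitals.
Il6 (chr5:30012864-30013113): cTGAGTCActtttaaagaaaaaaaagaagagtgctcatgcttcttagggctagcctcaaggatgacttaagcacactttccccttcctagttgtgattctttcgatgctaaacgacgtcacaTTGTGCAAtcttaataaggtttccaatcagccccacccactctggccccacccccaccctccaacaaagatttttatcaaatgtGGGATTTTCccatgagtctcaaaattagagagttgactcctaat
Il6st (chr13:112463820-112464069): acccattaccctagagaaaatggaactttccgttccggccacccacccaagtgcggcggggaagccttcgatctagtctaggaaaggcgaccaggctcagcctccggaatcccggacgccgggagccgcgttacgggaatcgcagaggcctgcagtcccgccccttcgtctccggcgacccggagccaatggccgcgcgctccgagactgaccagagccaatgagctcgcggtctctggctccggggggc
The 3 stretches in capitals upstream of *Il6* match TGANTCA (AP-1) starting 249 bases before the start, TTGNGCAA (C/EBP) at 128 and GGGANTTTC (NF-kB) at 44. The last 2 motifs were added after the sequences had been read. The window of *Il6st* held none of the 5 motifs searched on both strands, which were these 3, GGAATG (the core of TEAD sites) and TTCNNNGAA (STAT). Of 32851 windows of the same length, 6.75% held TGANTCA, 2.61% TTGNGCAA, 0.941% GGGANTTTC, 12.6% GGAATG and 7.02% TTCNNNGAA. A match describes letters and not a bound site.

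*Il11ra1*, the ligand-binding chain for IL-11, moved from 26.9, 27.2 and 23.4 CPM to 37.6, 41.3 and 41.7 CPM. The 3 L1L2-AKO libraries lay close together and above L1L2-FF (log2 fold change 0.64 ± 0.113, adjusted p = 0.00824, edgeR). Of its 50-base stretches, 46.3% also occur in transcripts of other genes, so that reads could be divided between these genes. No gene shared more of them than *Gm13305*, which had 1 to 3 reads per library. *Il6ra*, the IL-6-binding chain, stood at 16.5, 25.9 and 8.73 CPM in L1L2-FF and 32.4, 29.1 and 36.3 CPM in L1L2-AKO. Its ranges did not overlap, but the L1L2-FF libraries were spread widely, and the difference did not pass the test (log2 fold change 0.94 ± 0.333, adjusted p = 0.0955, edgeR); DESeq2's Wald test called it, and so did edgeR without L1L2-FF replicate 2. *Il27ra*, *Il12rb1*, *Il12rb2* and *Il31ra*, the receptor chains for IL-27, IL-12 and IL-31, were not called, with log2 fold changes between -0.12 and 1.58. Since 40.0% of the exon bases of *Il12rb2* overlap *Serbp1* on the opposite strand and the strand setting of the counting is not known, its value is uncertain.

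**Figure D2:**
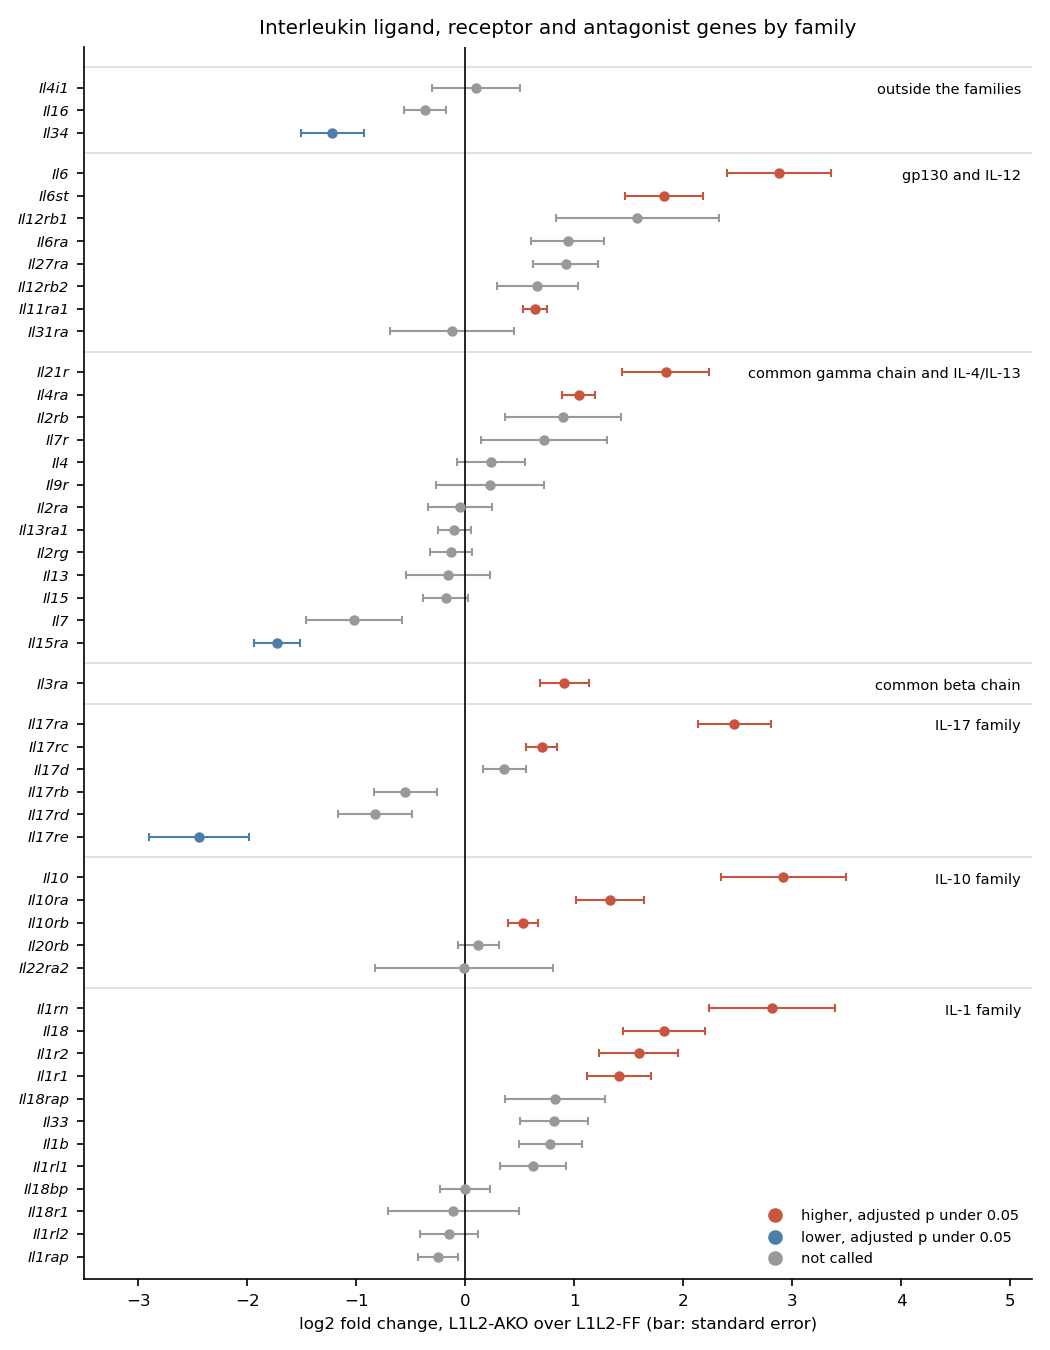
Log2 fold change of L1L2-AKO over L1L2-FF with its standard error (bars) for the 48 tested genes, grouped by family; red marks genes called higher, blue genes called lower and grey genes not called at an adjusted p of 0.05. The IL-1, IL-10 and gp130 families hold only rises among their called genes, and the IL-17 and common gamma chain families hold calls in both directions.

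In the IL-1 family, 4 of 12 genes rose: the ligand *Il18*, the signalling receptor *Il1r1*, the decoy receptor *Il1r2* and the receptor antagonist *Il1rn*. *Il1b* and *Il33* did not pass the threshold, and their log2 fold changes and those of the 6 other genes not called lay between -0.25 and 0.82.

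*Il1r1* (chr1:40225080-40317257), the receptor through which IL-1 signals, had 29.3, 29.3 and 24.1 CPM in L1L2-FF and 40.4, 96.7 and 83.3 CPM in L1L2-AKO. The L1L2-FF libraries were close together, and L1L2-AKO replicate 1 was the nearest to them (log2 fold change 1.41 ± 0.291, adjusted p = 0.0147, edgeR). Leaving out L1L2-FF replicate 1, L1L2-AKO replicate 2 or L1L2-AKO replicate 3 raised the adjusted p of *Il1r1* to 0.056, 0.0547 and 0.0558. *Il1r2*, which captures IL-1 without signalling, was counted 10, 10 and 8 times in L1L2-FF and 34, 24 and 26 times in L1L2-AKO (log2 fold change 1.59 ± 0.36, adjusted p = 0.0211, edgeR). The groups were well apart, but the call was lost when any 1 of 5 libraries was left out, all but L1L2-FF replicate 2, with an adjusted p of up to 0.0777. *Il1rn* encodes the secreted antagonist that occupies the IL-1 receptor. It moved from 0.128, 0.742 and 0.193 CPM to 2.14, 2.28 and 3.14 CPM, with L1L2-FF replicate 2 above the other 2 control libraries (log2 fold change 2.81 ± 0.578, adjusted p = 0.0147, edgeR). The log2 fold change was 3.94 without that library, and without L1L2-AKO replicate 3 the adjusted p was 0.0578. Its upstream bases are shown as those of the antagonist that rose. The table holds 3 starts for it, of which the one nearest the annotated start is shown, and the capitals mark TGANTCA 141 bases before that start.
Il1rn (chr2:24336610-24336859, plus strand): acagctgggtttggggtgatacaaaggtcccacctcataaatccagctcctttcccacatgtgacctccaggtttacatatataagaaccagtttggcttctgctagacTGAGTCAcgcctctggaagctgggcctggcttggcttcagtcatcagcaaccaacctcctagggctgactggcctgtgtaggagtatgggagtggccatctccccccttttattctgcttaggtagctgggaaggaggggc
*Il18*, a cytokine that is matured by caspase-1 as IL-1β is, stood at 0.606, 0.897 and 0.387 CPM in L1L2-FF and 1.81, 2.76 and 2.16 CPM in L1L2-AKO (log2 fold change 1.82 ± 0.377, adjusted p = 0.0149, edgeR). All L1L2-AKO libraries held at least 60 reads of it and no L1L2-FF library more than 29, and its adjusted p was 0.0637 without L1L2-FF replicate 1 and 0.0689 without L1L2-AKO replicate 2. The gene for its soluble inhibitor, *Il18bp*, gave 3.50 ± 0.582 CPM in L1L2-FF and 3.50 ± 0.465 CPM in L1L2-AKO (mean ± SD, n = 3).

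*Il1b*, which encodes IL-1β, was at 9.35, 9.21 and 5.16 CPM in L1L2-FF and 9.59, 17.2 and 13.9 CPM in L1L2-AKO. Its lowest L1L2-AKO library lay just above the highest L1L2-FF library, and the log2 fold change of 0.78 ± 0.289 had an adjusted p of 0.109 (edgeR), whereas DESeq2's Wald test called it. *Il33*, the alarmin released by stromal cells, stood at 1.79, 1.05 and 0.967 CPM in L1L2-FF and at 2.20, 2.19 and 2.27 CPM in L1L2-AKO, which were nearly equal to each other. It had a log2 fold change of 0.81 ± 0.312 and an adjusted p of 0.121 (edgeR). The gene for its receptor ST2, *Il1rl1*, overlapped between genotypes and had a log2 fold change of 0.62. *Il1rap*, the chain shared by these receptors, also overlapped (log2 fold change -0.25).

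The IL-17 receptor genes moved in opposite directions: *Il17ra* and *Il17rc* rose, *Il17re* fell, and *Il17rb* and *Il17rd* were not called. The genes for the ligands IL-17A and IL-17F were near the detection limit, with 2 and 23 reads over all 6 libraries.

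*Il17ra* (chr6:120463247-120487559), the chain common to the IL-17 receptors, had 8.30, 9.52 and 7.86 CPM in L1L2-FF and 23.5, 60.8 and 58.2 CPM in L1L2-AKO. Even the lowest L1L2-AKO library, replicate 1, exceeded every L1L2-FF library, and those differed little among themselves. The rise was 5.54-fold (log2 fold change 2.47 ± 0.339, adjusted p = 0.00273, edgeR). *Il17rc*, its partner for IL-17A and IL-17F, moved from 25.6, 23.7 and 27.8 CPM to 37.1, 38.9 and 49.0 CPM (log2 fold change 0.70 ± 0.14, adjusted p = 0.0133, edgeR). This smaller rise had its highest value in L1L2-AKO replicate 3, and its adjusted p was 0.0575 without L1L2-FF replicate 1. *Il17re*, the partner chain for IL-17C in epithelia, fell from 2.55, 2.13 and 0.935 CPM to 0.392, 0.349 and 0.279 CPM. Its reads numbered 80, 69 and 29 in L1L2-FF and only 13, 11 and 8 in L1L2-AKO. L1L2-FF replicate 3 lay lowest of its group and still above all L1L2-AKO libraries, and the level was 5.44 times lower in L1L2-AKO (log2 fold change -2.44 ± 0.459, adjusted p = 0.0102, edgeR). The 4 epithelial markers summed to 2.20 to 5.81 CPM in L1L2-FF and 0.633 to 1.22 CPM in L1L2-AKO; 1 of the 4 was tested, *Cdh1*, and it was not called (log2 fold change -1.77). Their part in the fall of *Il17re* was not tested. *Il17d*, the only IL-17 ligand gene to meet the count rule, gave 10.4, 7.36 and 8.96 CPM in L1L2-FF and 13.8, 10.1 and 10.4 CPM in L1L2-AKO. These ranges overlapped (log2 fold change 0.36 ± 0.199, adjusted p = 0.272, edgeR). *Il17rb*, which binds IL-25, and *Il17rd* had log2 fold changes of -0.55 and -0.83.

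Among the common gamma chain and IL-4/IL-13 genes, *Il4ra* and *Il21r* rose, *Il15ra* fell, and 10 others did not pass the threshold, among them the ligands *Il4*, *Il13*, *Il7* and *Il15*. The gene for the common gamma chain itself, *Il2rg*, overlapped between genotypes.

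*Il15ra* (chr2:11705290-11734317) encodes the high-affinity chain that presents IL-15. It stood at 16.4, 23.7 and 18.9 CPM in L1L2-FF and at 5.64, 7.26 and 4.85 CPM in L1L2-AKO. The genotypes were far apart, with a level 3.32 times lower in L1L2-AKO (log2 fold change -1.73 ± 0.21), and its adjusted p of 0.00172 (edgeR) was the smallest of the 48 genes. Its ligand gene *Il15* was at 6.45, 8.81 and 5.83 CPM in L1L2-FF and 6.73, 6.34 and 5.59 CPM in L1L2-AKO, with overlapping ranges (log2 fold change -0.18 ± 0.207, adjusted p = 0.624, edgeR). Muscle fibres also express both genes, and the 5 skeletal muscle markers summed to 10.5 to 16.2 CPM in L1L2-FF and 2.70 to 8.55 CPM in L1L2-AKO, with 0 of 4 tested called; their part in the fall was not tested. The upstream bases of *Il15ra* are shown as those of the receptor gene with the smallest adjusted p, and the window shown, at the start nearest the annotated one, held none of the 5 motifs. A second start in the table has a window with both GGAATG and TGANTCA.
Il15ra (chr2:11705043-11705292, plus strand): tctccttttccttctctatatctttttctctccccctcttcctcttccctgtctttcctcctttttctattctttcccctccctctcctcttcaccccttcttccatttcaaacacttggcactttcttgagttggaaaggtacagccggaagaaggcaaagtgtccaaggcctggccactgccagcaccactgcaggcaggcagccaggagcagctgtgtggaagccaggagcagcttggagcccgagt

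*Il4ra* (chr7:125552120-125579474), the chain shared by the receptors for IL-4 and IL-13, had 34.2, 34.1 and 27.0 CPM in L1L2-FF and 61.9, 77.0 and 56.9 CPM in L1L2-AKO. Each L1L2-AKO library was above each L1L2-FF library (log2 fold change 1.04 ± 0.154, adjusted p = 0.0038, edgeR). Its partner *Il13ra1* had 14.8, 13.9 and 12.2 CPM in L1L2-FF and 12.8, 14.1 and 11.3 CPM in L1L2-AKO. Its values overlapped between genotypes (log2 fold change -0.10 ± 0.152, adjusted p = 0.712, edgeR). *Il4* gave 1.66, 1.42 and 1.39 CPM in L1L2-FF and 1.18, 2.00 and 2.13 CPM in L1L2-AKO, so that L1L2-AKO held both the lowest and the highest value (log2 fold change 0.24 ± 0.312, adjusted p = 0.657, edgeR). *Il13* was counted 14 to 26 times in each library, with a log2 fold change of -0.16. The decoy for IL-13, *Il13ra2*, was counted 10, 6 and 29 times in L1L2-FF and 16, 2 and 4 times in L1L2-AKO, too few to be tested.

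*Il21r*, the receptor chain for IL-21 on lymphocytes and myeloid cells, moved from 0.830, 1.11 and 0.483 CPM to 2.02, 4.03 and 2.69 CPM (log2 fold change 1.84 ± 0.40, adjusted p = 0.0181, edgeR). L1L2-AKO replicate 2 was the highest, and no value overlapped. The call was lost without L1L2-FF replicate 1 (adjusted p = 0.0708), without that L1L2-AKO library (0.0787) and when L1L2-AKO replicate 3 was dropped (0.0528). *Il2rg* gave 15.4, 13.6 and 12.8 CPM in L1L2-FF and 15.0, 13.6 and 9.53 CPM in L1L2-AKO (log2 fold change -0.13 ± 0.193, adjusted p = 0.715, edgeR). The libraries coincided apart from the low L1L2-AKO replicate 3. Of the 50-base stretches of *Il2rg*, 27.5% also occur in other genes, in none more than in *Gm20489*. *Il2ra*, *Il2rb*, *Il7r*, *Il9r* and the stromal ligand gene *Il7* were not called either, with log2 fold changes from -1.02 for *Il7* to 0.90 for *Il2rb*.

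In the IL-10 family the ligand *Il10* and both chains of its receptor rose. *Il10* (chr1:131019845-131024974), the anti-inflammatory cytokine of macrophages and regulatory T cells, was counted 1, 6 and 2 times in L1L2-FF and 21, 23 and 25 times in L1L2-AKO. Its reads were few in the control libraries and even across L1L2-AKO (log2 fold change 2.92 ± 0.576, adjusted p = 0.0124, edgeR), and it met the count rule only through L1L2-AKO. The log2 fold change of *Il10* was 3.84 without L1L2-FF replicate 2, the control library with the most reads of it. *Il10ra*, the IL-10-binding chain of leukocytes, moved from 3.86, 7.48 and 3.13 CPM to 11.6, 13.6 and 11.2 CPM (log2 fold change 1.33 ± 0.314, adjusted p = 0.0253, edgeR). *Il10rb*, the broadly expressed second chain, moved less, from 32.9, 32.7 and 28.9 CPM to 38.3, 48.9 and 49.5 CPM. For both, the lowest L1L2-AKO library was above the highest L1L2-FF library, and the rise of *Il10rb* was 1.45-fold (log2 fold change 0.53 ± 0.134, adjusted p = 0.0318, edgeR). All 3 calls depended on single libraries: each was lost without L1L2-FF replicate 1, L1L2-AKO replicate 2 or L1L2-AKO replicate 3, and those on *Il10ra* and *Il10rb* also without L1L2-FF replicate 3. The adjusted p in these fits reached 0.0543 for *Il10*, 0.10 for *Il10ra* and 0.125 for *Il10rb*. Of the 50-base stretches of *Il10rb*, 13.9% also occur in other genes, in none more than in *Gm21970*, which had 0 reads in all libraries. *Il20rb*, a chain of the receptors for IL-19, IL-20 and IL-24, stood at 8.33, 6.93 and 5.70 CPM in L1L2-FF and 7.87, 7.20 and 7.65 CPM in L1L2-AKO. All its L1L2-AKO values fell within the L1L2-FF range (log2 fold change 0.12 ± 0.187, adjusted p = 0.731, edgeR). The decoy for IL-22, *Il22ra2*, varied between 3 and 37 reads and overlapped between genotypes (log2 fold change -0.01).

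Outside these families, *Il3ra* rose and *Il34* fell. *Il3ra*, the binding chain for IL-3, moved from 10.5, 12.9 and 7.28 CPM to 18.4, 16.7 and 22.6 CPM (log2 fold change 0.91 ± 0.226, adjusted p = 0.0299, edgeR), and it was no longer called when L1L2-FF replicate 1 or any 1 of the L1L2-AKO libraries was dropped, with an adjusted p of up to 0.106. *Il34* encodes a ligand of the macrophage receptor CSF1R. Its levels were 7.41, 7.73 and 4.67 CPM in L1L2-FF and 3.77, 2.38 and 2.30 CPM in L1L2-AKO. L1L2-FF replicate 3 and L1L2-AKO replicate 1 came closest to each other without overlap (log2 fold change -1.22 ± 0.289, adjusted p = 0.0251, edgeR). Its adjusted p rose to between 0.0957 and 0.0999 on dropping L1L2-FF replicate 1, L1L2-AKO replicate 2 or L1L2-AKO replicate 3. *Il16*, a T cell chemoattractant, and *Il4i1*, an amino acid oxidase, were not called, with log2 fold changes of -0.37 and 0.10; 83.9% of the exon bases of *Il4i1* overlap *Tbc1d17* on the opposite strand, so its value is uncertain.

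Within the L1L2-AKO group the 15 genes called higher did not behave alike. The mean of replicates 2 and 3 over replicate 1 was 3.59 for *Il6*, 2.53 for *Il17ra*, 2.51 for *Il6st* and 2.23 for *Il1r1*. For the other 11 genes this ratio lay between 0.814 and 1.66. The median ratio was 1.01 over all genes tested, and 148 of the 1455 genes called higher (10.2%) exceeded a ratio of 2, a value chosen after these levels were seen. For the macrophage markers the ratio was 0.826 to 1.24. For the 6 tested T and NK cell markers, which had few reads, it was higher. It was 4.23 for *Cd3d*, 3.05 for *Cd3g*, 2.85 for *Cd2*, 2.18 for *Cd3e*, 1.68 for *Klrb1c* and 1.63 for *Lck*. This list summed to 7.69, 16.5 and 18.5 CPM in L1L2-AKO. The part of RNA from macrophages or from T and NK cells in these differences between replicates was not tested. Without L1L2-AKO replicate 1, 14 of the interleukin genes were called higher.

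Neighbouring genes of one family did not always move together. The IL-1 receptor cluster spans chr1:40074079-40551705 (GRCm38, GENCODE M21) with 6 genes that all met the count rule. The first 2, *Il1r2* and *Il1r1*, were called higher, and the next 4, *Il1rl2*, *Il1rl1*, *Il18r1* and *Il18rap*, were not. On chromosome 6, *Il17re*, which fell, ends 668 bases before *Il17rc*, which rose, begins on the same strand. On chromosome 7, *Il4ra* and *Il21r*, which both rose, lie 23954 bases apart. On chromosome 2, *Il15ra*, which fell, follows *Il2ra* (log2 fold change -0.05) after 12096 bases, and on chromosome 13, *Il6st* lies 9811 bases from *Il31ra* (log2 fold change -0.12).

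**Figure D3:**
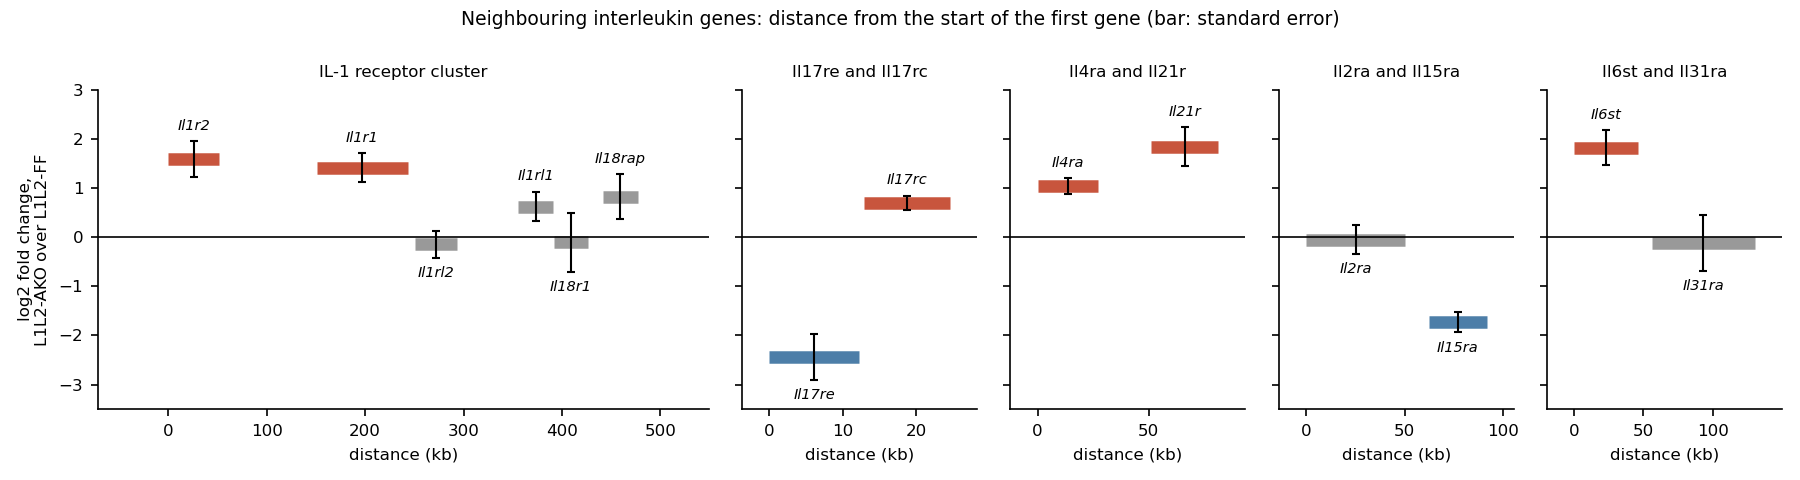
Log2 fold change of L1L2-AKO over L1L2-FF (vertical axis, with standard error) against the distance in kb from the start of the first gene (horizontal axis) for 5 groups of neighbouring interleukin genes. Each thick bar spans a gene, in red where it was called higher, blue where lower and grey where not called; *Il17re* at -2.44 and *Il17rc* at 0.70 lie 668 bases apart.

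Promoter windows were found in the RefSeq table for 38 of the 49 genes and 13 of the 18 called. *Il10*, *Il10ra*, *Il10rb*, *Il17ra* and *Il34* had no entry. Of 18 windows of called genes, some with several starts, 5 held GGAATG (27.8%), 3 held TGANTCA (16.7%) and 1 held TTCNNNGAA (5.56%). These shares can be set against those over all windows given above. TTGNGCAA was in 2 windows (11.1%), those of *Il6* and *Il3ra*, and GGGANTTTC only in that of *Il6* (5.56%). Both motifs were added after the sequences had been read, so their shares cannot be compared with those over all windows. All of these are counts of letters in few windows.

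Genes of the pathways that act with the interleukins were counted list by list. The shares to set beside these counts are 9.28% of all genes tested called higher and 7.18% called lower. Of 14 cytokine and receptor genes of these families without an Il symbol, 3 were higher and 0 lower, and all 3 belong with gp130: *Lifr*, the LIF receptor, from 91.3 ± 11.1 to 202 ± 32.1 CPM (log2 fold change 1.14), *Osmr*, the oncostatin M receptor, from 53.4 ± 15.4 to 114 ± 33.5 CPM (1.09), and *Osm*, which encodes oncostatin M, from 0.716 ± 0.143 to 2.47 ± 0.62 CPM (1.78; mean ± SD, n = 3). The inflammasome list, which holds the sensors and proteases that release IL-1β and IL-18, had 3 of 7 genes higher and none lower: *Nlrp3* (log2 fold change 1.51), *Aim2* (1.01) and the adaptor *Pycard* (0.95). *Casp1* itself was not called (0.53).

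Among 11 JAK and STAT genes, *Jak1* (log2 fold change 0.43) and *Stat6* (0.86), the factor downstream of IL-4 receptors, were higher, and *Stat5a* (-0.49) was lower. *Stat3*, the main factor downstream of gp130, had 145 ± 20.6 CPM in L1L2-FF and 216 ± 43.9 CPM in L1L2-AKO and was not called (log2 fold change 0.57, adjusted p = 0.069, edgeR). None of the 4 SOCS feedback genes passed the threshold. *Socs3*, which IL-6 signalling induces, gave 169 ± 38.2 and 170 ± 33.3 CPM (log2 fold change 0.01 ± 0.202, adjusted p = 0.982, edgeR). Of 11 genes of IL-1 receptor signalling, 1 was higher, *Irak4* (0.64). Of 5 genes of IL-17 receptor signalling, none was higher and 2 were lower, the adaptor *Traf5* (-0.76) and *Nfkbiz* (-1.34), a factor that IL-17 and IL-1 induce. Of 7 tested genes that respond to IL-4 and IL-13, *Mgl2*, a macrophage lectin, was higher (1.44), *Egr2*, a transcription factor, was lower (-1.83), and *Retnla* was not called (0.88). On these 7 pathway lists 14 genes were called in all. The lists are short, and their shares were not tested against those over all genes.

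Of 12 macrophage markers 11 were higher and none lower, *Mertk* being the exception, with a median log2 fold change of 1.48 and a summed level of 272 to 532 CPM in L1L2-FF and 980 to 1090 CPM in L1L2-AKO. The part of macrophage RNA in the interleukin values was not tested. The 2 most abundant macrophage markers, *Mrc1* and *Lyz2*, had log2 fold changes of 1.84 and 1.08. Lymphoid, granulocyte and dendritic cell lists gave no calls: 0 of 6 tested T and NK cell markers (summed 3.74 to 13.8 CPM in L1L2-FF and 7.69 to 18.5 CPM in L1L2-AKO, median log2 fold change 0.929), 0 of 4 B cell markers, 0 of 5 mast cell markers, 0 of 4 neutrophil markers and 0 of 4 dendritic cell markers. The most abundant of each were *Lck* and *Cd3g*, *Cd79a* and *Ms4a1*, *Kit* and *Cpa3*, *S100a9* and *S100a8*, and *Zbtb46* and *Xcr1*, with log2 fold changes from -0.78 to 1.03. Of 7 endothelial markers *Vwf* was lower, and the summed level was 1660 to 2230 CPM in L1L2-FF and 986 to 2150 CPM in L1L2-AKO, lowest in L1L2-AKO replicate 3; *Cdh5* and *Pecam1* had log2 fold changes of -0.29 and -0.47. Of 6 adipose progenitor markers *Pi16* was lower, with *Fbn1* at -0.09 and *Dcn* at -0.72.

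**Figure D4:**
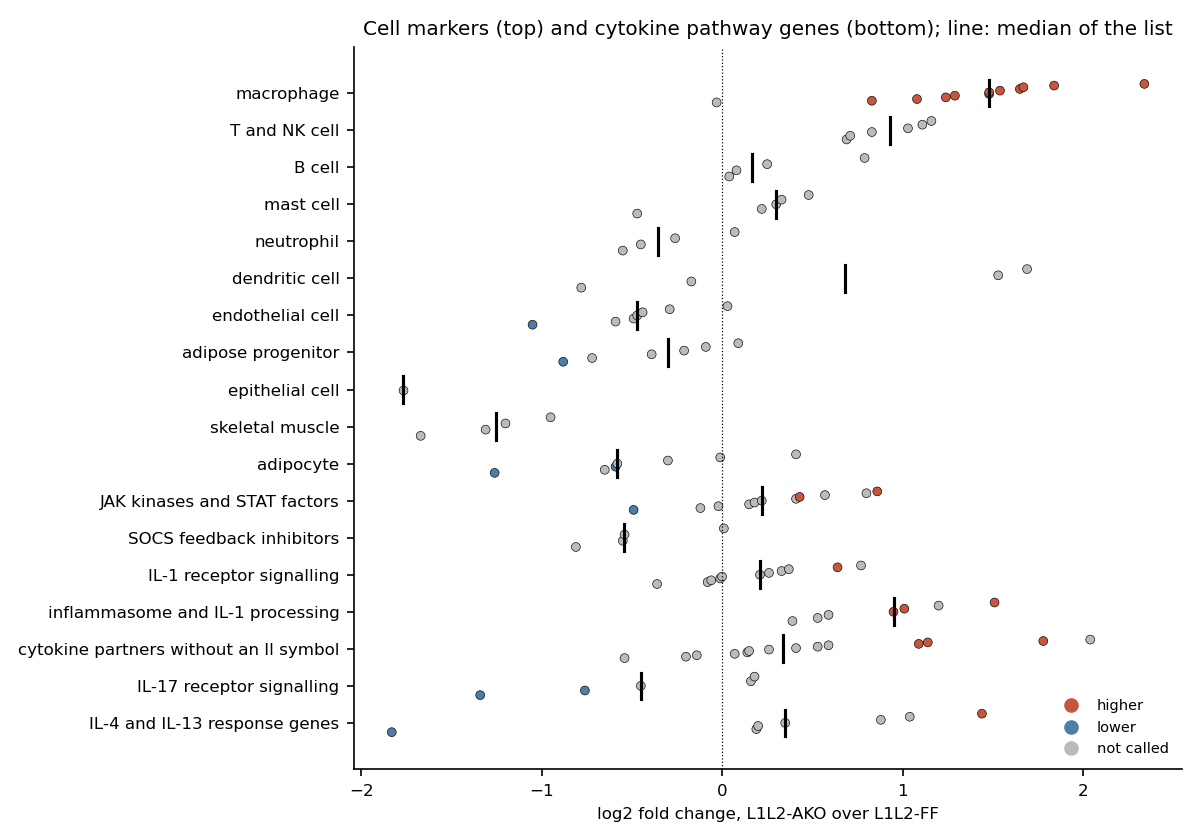
Log2 fold change of L1L2-AKO over L1L2-FF for each tested gene (points) of the cell marker lists and the cytokine pathway lists, with the median of each list as a black line; red points were called higher, blue lower and grey not called. Macrophage markers have the highest median, 1.48. The 5 genes of IL-17 receptor signalling have a median of -0.45, and some lists have a lower one, such as -1.25 for skeletal muscle markers.

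Most interleukin ligand genes were at the limit of detection, and the threshold of the rule divided genes of similar counts. Just inside it, with a count of 10 in exactly 3 libraries, *Il10* had the most reads over the 6 libraries (78) and *Il12rb1* the fewest (52). Just outside, with a count of 10 in 2 libraries, *Il23a*, a subunit of IL-23, had 45 reads and *Il17c* 35. *Il11*, named here after its values were seen, had 30 reads with at most 10 in a library. Genes at 0 in all 6 libraries included *Il9* and *Il21*, a count that allows up to 3 reads over the 6 libraries together, for counting error alone.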

How the data were processed

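RNA of floated scWAT adipocytes was sequenced as paired ends in 6 libraries, grouped by the submitters' labels. The authors aligned reads to mm10 with HISAT2 2.1.0, processed them with StringTie 1.3.5 and deposited whole-number counts per gene symbol, without normalization; the annotation, the counting program and its strand setting are not given in the sources used here. In R 4.3.3, counts were filtered with filterByExpr of edgeR 4.0.16 (minimum count 10, minimum total 15), which kept 15674 of 37384 genes, scaled by TMM and compared two-sided by edgeR's quasi-likelihood test at a Benjamini-Hochberg adjusted p of 0.05. The common biological coefficient of variation was 0.206. Each standard error is the size of the log2 fold change over the square root of F. CPM are TMM-normalized. Per-kb levels use union exon lengths, and positions come from GENCODE M21 (GRCm38, the build of mm10), in which all 49 symbols were found. Promoters come from RefSeq (GRCm38.p6). Plots were made with Python 3.11.15 and matplotlib 3.10.9, and the fits were tested on simulated data. DESeq2 1.42.0 and limma 3.58.1 served as alternatives, beside other scalings and filters, a replicate block and each library left out.

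The genes, lists and motifs were chosen with earlier results of these data known. Described in full were the genes past the threshold and the 8 others with the highest level per kb. Of each pathway list the genes past the threshold are named. Of each marker list except the epithelial and skeletal muscle lists, the 2 most abundant are named, with some others beside them. Replicates of a genotype differed by more than sampling noise, and p-values measure the spread between pools of 4 mice.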

Additional observations from a re-analysis of the deposited data

How the results depend on the processing

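All 18 calls kept their direction in every alternative in which the gene was tested. *Il17ra*, *Il15ra*, *Il6*, *Il4ra*, *Il17re* and *Il11ra1* stayed past the threshold in each of them, and the 12 others lost it in at least 1 of the 6 fits without 1 library. In those fits the interleukin genes called higher ranged from 5 to 18 and those lower from 2 to 3, the pathway genes called from 6 to 16, all genes called higher from 777 to 1552 and all genes lower from 467 to 1293. The other alternatives gave 12 to 18 interleukin genes higher and 2 to 4 lower. DESeq2's Wald test called 18 higher, *Il1b* and *Il6ra* among them. *Il2rg* turned to 0.05 without L1L2-AKO replicate 3, *Il15* to 0.02 without L1L2-FF replicate 2 and *Il20rb* to -0.01 without L1L2-FF replicate 3 (log2 fold changes, none called); the fits without 1 library gave -0.26 to 0.05, -0.30 to 0.02 and -0.01 to 0.26 for these 3 genes.

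The correlation of deviations between libraries with the same replicate number was 0.188, 0.255 and -0.0544. Between libraries with different numbers it ranged from -0.324 to 0.211. So few values cannot settle whether the numbers pair the samples, and the main fit was unpaired. With a replicate block, 13 interleukin genes were higher and 4 lower, and *Il10rb* and *Il3ra* were not called. Scaling shifted the median over all genes by at most 0.035 on the log2 scale. *Il13ra2*, with 2 to 29 reads per library, could not be tested at this depth. The restriction to genes with a count of 10 in a library of each genotype was added after the data were seen.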
